A study of Mus musculus with 36 samples.

Results

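Oxygen sensing in the mouse heart was followed through the genes of the hypoxia-inducible factors and of the prolyl hydroxylases that control them. Of 8 genes named for this set, 7 had a row in the deposited table of 36128 gene models under 32750 symbols: the alpha subunits Hif1a, Epas1 and Hif3a, their partner Arnt, and the hydroxylases Egln1, Egln2 and Egln3. Vegfa was not analysed here. The genes were chosen by name with earlier results of these libraries known, and for each symbol the row with the highest mean FPKM was taken. Each of the 7 had a single row, so that this choice decided nothing. Tests of these genes therefore describe the libraries from which the set was proposed and are not independent support. FPKM, the unit throughout, is a level scaled to transcript length and library size, which lets levels be compared between genes.

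Hypoxia-inducible factors are transcription factors made of an oxygen-labile alpha subunit and the stable subunit Arnt. When oxygen is plentiful, the Egln enzymes hydroxylate prolines of the alpha subunit, the Vhl ubiquitin ligase recognises the mark and the protein is degraded. Much of this control therefore acts on protein, which RNA levels do not show. Hif1a is broadly expressed and drives glycolytic genes among others, Epas1 (the gene of HIF-2 alpha) is known for its expression in endothelium, and Hif3a has splice forms that can restrain the other subunits. Egln1 is the main oxygen sensor, and Egln1 and Egln3 are themselves known targets of the factors they control.

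RNA sequencing covered 36 libraries of mouse heart in 16 groups. Whole ventricle was taken from unoperated mice at postnatal day 0 (P0), P4 and P7 and from adults, and from mice whose hearts had been resected or sham-operated 1 or 7 days before; each of these 8 groups had 2 libraries. Cardiomyocytes isolated on Miltenyi columns came from P0 and P4 hearts and from hearts operated 7 days earlier (resected or sham), 4 groups of 3 libraries. Dissociated adult cardiomyocytes kept as explants gave 4 groups of 2 libraries, at 0, 24, 48 and 72 h. The age at operation is not given in the labels, nor whether replicates came from separate animals, so p-values measure the spread between these samples, which may be technical. All mice were of CD-1 background, and the labels name no transgene or deletion.

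The files hold no counts, and the depth of each library is unknown; 10454 to 13134 gene models per library had at least 1 FPKM. All libraries are labelled as cardiomyocytes, and the summed level of 8 cardiomyocyte markers was 3987 to 36809 FPKM. Ventricle libraries also held 9 endothelial markers at 163 to 396 FPKM and 8 fibroblast markers at 431 to 1615 FPKM. The 3 isolated P0 libraries differed in 7 erythroid markers, with sums of 21042, 20734 and 989 FPKM, and the third resection library of isolated cells reached 72171 FPKM. The labels name more than a single library method and sequencer without saying which library had which. The 8 operated ventricle libraries stood apart from the 6 unoperated neonatal ones: of 14019 genes, 2805 (20%) were lower in every operated library and 1645 were higher in every one. Operated and unoperated libraries share no group, and operation and library set cannot be told apart.

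The gene starts of the 3 members with the widest changes between P0 and the adult that had a promoter entry are shown by the 250 bases before them, from RefSeq on mouse build GRCm38.p6, read 5′ to 3′ on the gene's strand. Capitals mark ACGTG and GCGTG, the 2 common core forms of the hypoxia response element, or their reverse complements CACGT and CACGC. The windows lie at chr7:17062428-17062677 on the minus strand for Hif3a, at chr8:124949255-124949504 on the minus strand for Egln1 and at chr12:54203875-54204124 on the minus strand for Egln3.
Hif3a: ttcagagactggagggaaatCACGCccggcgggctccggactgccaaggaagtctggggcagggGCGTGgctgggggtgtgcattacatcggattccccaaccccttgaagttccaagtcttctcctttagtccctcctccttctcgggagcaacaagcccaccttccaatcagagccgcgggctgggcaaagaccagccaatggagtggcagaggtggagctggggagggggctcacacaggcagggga
Egln1: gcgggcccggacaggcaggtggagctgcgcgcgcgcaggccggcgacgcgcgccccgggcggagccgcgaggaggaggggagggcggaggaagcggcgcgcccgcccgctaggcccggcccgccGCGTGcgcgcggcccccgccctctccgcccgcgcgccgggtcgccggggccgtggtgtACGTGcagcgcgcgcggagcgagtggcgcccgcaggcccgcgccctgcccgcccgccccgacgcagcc
Egln3: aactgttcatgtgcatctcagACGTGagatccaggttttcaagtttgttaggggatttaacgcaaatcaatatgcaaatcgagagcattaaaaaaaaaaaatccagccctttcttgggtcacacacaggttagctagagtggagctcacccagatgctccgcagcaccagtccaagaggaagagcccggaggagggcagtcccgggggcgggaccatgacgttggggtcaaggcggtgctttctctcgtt
ACGTG in either orientation was found in 16.6% and GCGTG in 28.2% of the 32851 RefSeq windows of the same length. The Hif3a window held 0 copies of ACGTG and 2 of GCGTG, the Egln1 window 1 of each, and the Egln3 window 1 copy of ACGTG, 229 bases before the start. Promoter entries matched 6 of the 7 members, Epas1 being the other one, and of their 7 windows 4 held ACGTG and 5 held GCGTG. A match describes letters and is not a measured binding site.

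On the build of the deposited table, mm9, Hif1a lies at chr12:75002361-75048517, Epas1 at chr17:87153246-87232750, Hif3a at chr7:17616855-17647776 and Arnt at chr3:95238309-95301162. Egln1 lies at chr8:127432495-127473154, Egln2 at chr7:27943676-27951821 and Egln3 at chr12:55279967-55304847. Strand-specific counting is not stated. The Hif1a model overlaps Gm15283, which reached at most 1.36 FPKM, and the Egln2 model overlaps the edge of Cyp2t4, which reached at most 0.228 FPKM; the other 5 overlap no other model.

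**Figure D1:**
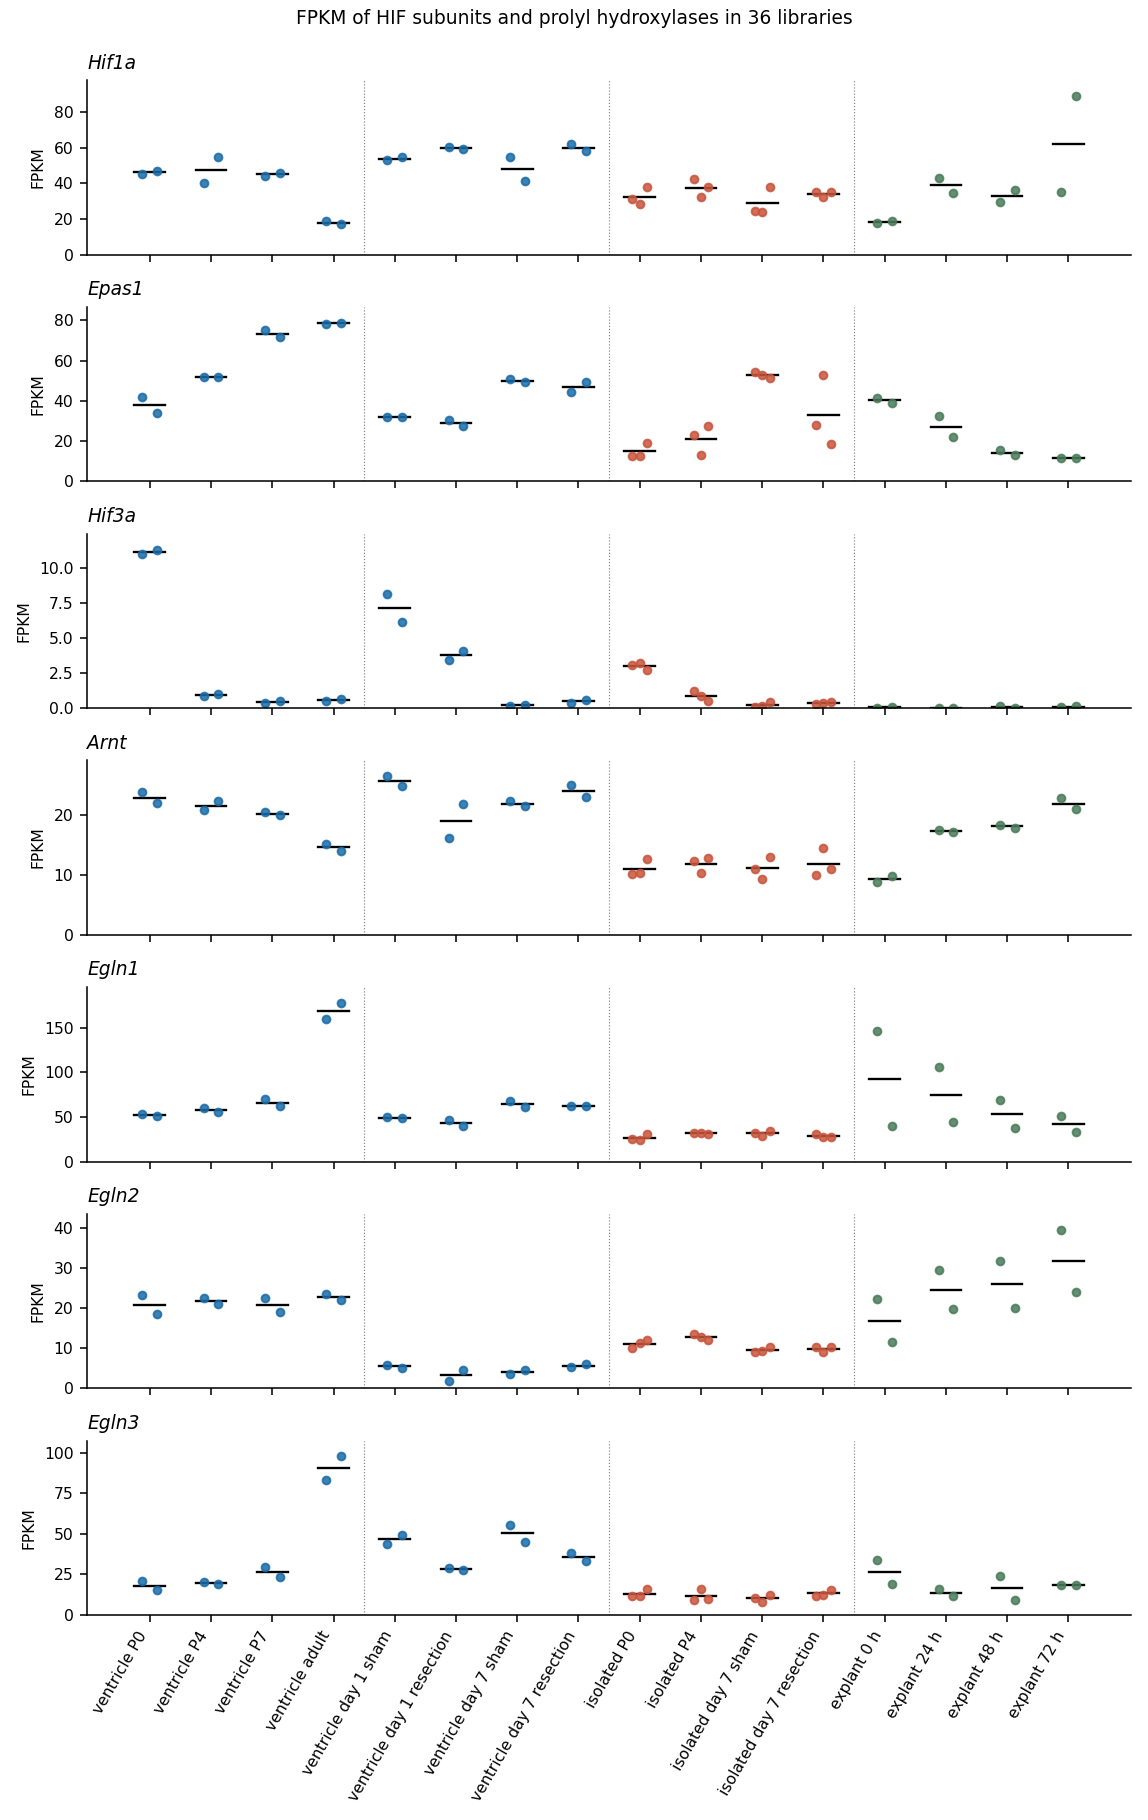
FPKM (vertical axis, each panel on its own linear scale from 0) of the 7 genes in every library (points) of the 16 groups (horizontal axis), with the group mean as a black line; blue is ventricle, red isolated cells, green explants. Egln1 and Egln3 peak in adult ventricle at 169 and 90.4 FPKM, Hif3a peaks in P0 ventricle at 11.1 FPKM, and Egln2 sits between 1.82 and 5.96 FPKM in the operated ventricle libraries.

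Across all libraries the genes differed widely in how far they ranged. Egln1 had the highest median level of the hydroxylases, 48.0 FPKM, against 18.6 for Egln3 and 12.1 for Egln2. Among the alpha subunits the medians were 38.1 FPKM for Hif1a, 33.1 for Epas1 and 0.464 for Hif3a, and that of Arnt was 17.3 FPKM. Hif3a was below 1 FPKM in 25 of 36 libraries, and the other 6 genes were above 1 in all. The highest group mean exceeded the lowest by 2.76-fold for Arnt, 3.46-fold for Hif1a, 6.31-fold for Egln1, 6.74-fold for Epas1, 8.83-fold for Egln3 and 9.95-fold for Egln2. These levels are descriptions, with no test.

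In the ordered group means many neighbours were not separated. Of 15 neighbouring pairs, the library ranges did not overlap in 3 for Hif1a and Egln2, 4 for Arnt and Egln3, 5 for Hif3a and Egln1 and 6 for Epas1. Adult ventricle stood clear of the next group for Egln1, Egln3 and Epas1. For Hif1a the top group was the 72 h explants, whose 35.3 and 88.9 FPKM enclosed both resection groups of the ventricle, and the lowest were adult ventricle and 0 h explants, which overlapped. With median-of-ratios scaling the top group of Hif1a became ventricle at day 1 after resection and that of Epas1 isolated cells at day 7 after sham.

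The postnatal comparison of unoperated ventricle asks how the set changes as the heart matures. From P0 to the adult, Hif1a, Hif3a and Arnt fell while Epas1, Egln1 and Egln3 rose, and Egln2 did not pass the test. Hif3a fell first, with most of its fall before P4, and Epas1 rose before P7. Hif1a and the hydroxylases Egln1 and Egln3 passed between P7 and the adult. Changes are given on the scale of log2(FPKM + 1), which understates those of low genes such as Hif3a. They come from limma fits over all genes, with Benjamini-Hochberg adjustment and calls at an adjusted p under 0.05.

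Hif3a stood at 11.0 and 11.3 FPKM at P0. It was at 0.84 and 1.02 FPKM at P4, 0.352 and 0.537 at P7 and 0.508 and 0.66 in adults. Every later library lay below both P0 libraries, and those of P7 and the adult overlapped. The change from P0 was -2.65 ± 0.16 (SE) at P4 (limma adjusted p = 7.2e-06), -3.07 ± 0.16 at P7 (adjusted p = 1.2e-06) and -2.94 ± 0.16 in the adult (adjusted p = 2.8e-08). Atrial markers fell over the same time, 5 of 7 of them at P7. Their summed level in the P0 libraries was 1293 and 375 FPKM. Their part in the Hif3a levels and in the later fall was not tested.

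Hif1a was at 45.4 and 47.2 FPKM at P0, 40 and 54.8 at P4, 44.4 and 45.7 at P7 and 18.9 and 17.0 in adults. The neonatal ages overlapped and both adult libraries were below all of them. The fall from P0 to the adult was -1.32 ± 0.15 (limma adjusted p = 1.6e-05), and that from P7 to the adult -1.28 ± 0.15 (adjusted p = 4.9e-05). Other cell markers moved over the same time. Fibroblast sums were 974 and 1249 FPKM at P0 and 431 and 442 in adults, with 5 of 8 markers lower and 1 higher. Macrophage sums were 39.0 and 49.9 FPKM at P0 and 173 and 225 in adults, with 9 of 9 markers higher, and 4 of 7 erythroid markers were higher. The part of these cells in the adult changes of Hif1a, Egln1 and Egln3 was not tested.

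Epas1 went the other way. Its levels were 42.0 and 33.9 FPKM at P0, 51.8 and 51.6 at P4, 75.2 and 71.5 at P7 and 78.1 and 78.7 in adults, each age above the one before with no overlap. The rise from P0 was 0.94 ± 0.12 at P7 (limma adjusted p = 3.4e-04) and 1.04 ± 0.12 in the adult (adjusted p = 1.5e-05), whereas 0.44 ± 0.12 at P4 did not pass (adjusted p = 0.107). In a single fit over all 36 libraries the P7 rise did not pass either (adjusted p = 0.107). As a ratio of FPKM within a library, Epas1 to Hif1a was 0.719 and 0.924 at P0, 1.57 and 1.69 at P7 and 4.13 and 4.62 in adults. In bulk tissue, more cells of a type and more RNA per cell cannot be told apart. The sum of 9 endothelial markers was 283 to 349 FPKM at P0, 348 to 368 at P4, 380 to 396 at P7 and 205 to 216 in adults. Against P0, 0 of the 9 passed as higher and 0 as lower at P7. In the adult 0 passed as higher and 3 as lower. Their part in the Epas1 levels was not tested.

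Arnt, the shared partner, was at 23.7 and 21.9 FPKM at P0, 20.4 and 19.9 at P7 and 15.2 and 13.9 in adults. The adult libraries lay below all neonatal ones. The change from P0 was -0.61 ± 0.14 (limma adjusted p = 0.00202). The median of all genes itself moved by -0.36 between P0 and adult, and with median-of-ratios scaling the change of Arnt was -0.17 and did not pass (adjusted p = 0.226). From P7 the change was -0.44 ± 0.14 (adjusted p = 0.0195), and it was -0.15 with that scaling (adjusted p = 0.325).

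Of the hydroxylase genes, Egln1 and Egln3 rose late. Egln1 was at 53.6 and 50.7 FPKM at P0, 60.4 and 55.8 at P4, 70.0 and 61.8 at P7 and 160 and 178 in adults, a change of 1.68 ± 0.12 from P0 (limma adjusted p = 3.2e-07). Egln3, which is known to be inducible in muscle, was at 21.1 and 15.2 FPKM at P0, 20.4 and 19.1 at P4, 29.6 and 23.5 at P7 and 83.1 and 97.8 in adults, a change of 2.27 ± 0.17 (adjusted p = 4.7e-07). For both genes the adult libraries lay far above every neonatal library, and from P7 the changes were 1.35 ± 0.12 and 1.74 ± 0.17 (adjusted p = 5.3e-06 and 1.1e-05). At P7 neither passed against P0, with adjusted p of 0.0939 for Egln1 and 0.0628 for Egln3, but both did with median-of-ratios scaling or quantile normalization.

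Egln2, the hydroxylase gene with the least known response to oxygen, held 23.3 and 18.5 FPKM at P0, 22.5 and 21.0 at P4, 22.5 and 19.2 at P7 and 23.7 and 22.1 in adults. All ages overlapped with P0, and the adult difference was 0.13 ± 0.25 (95% confidence interval -0.40 to 0.67, limma adjusted p = 0.66). Summed over the 3 genes, the hydroxylases reached 98.0 and 84.4 FPKM at P0 and 267 and 298 in adults. The share of Egln2 in that sum was 21.9% and 23.8% at P0 and 7.43% and 8.86% in adults, while Egln1 stayed between 54.7% and 60.1%.

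In counts, 1 of 7 members was called at P4, where 1.35% of all tested genes were called, and 2 of 7 at P7, where 12.7% were. Against P0 the adult had 6 of 7 called, with 57.2% of all genes called, and against P7 4 of 7, with 40.8% of all genes. Under the other scalings 48.6% and 48.5% of all genes were called between P0 and the adult.

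**Figure D2:**
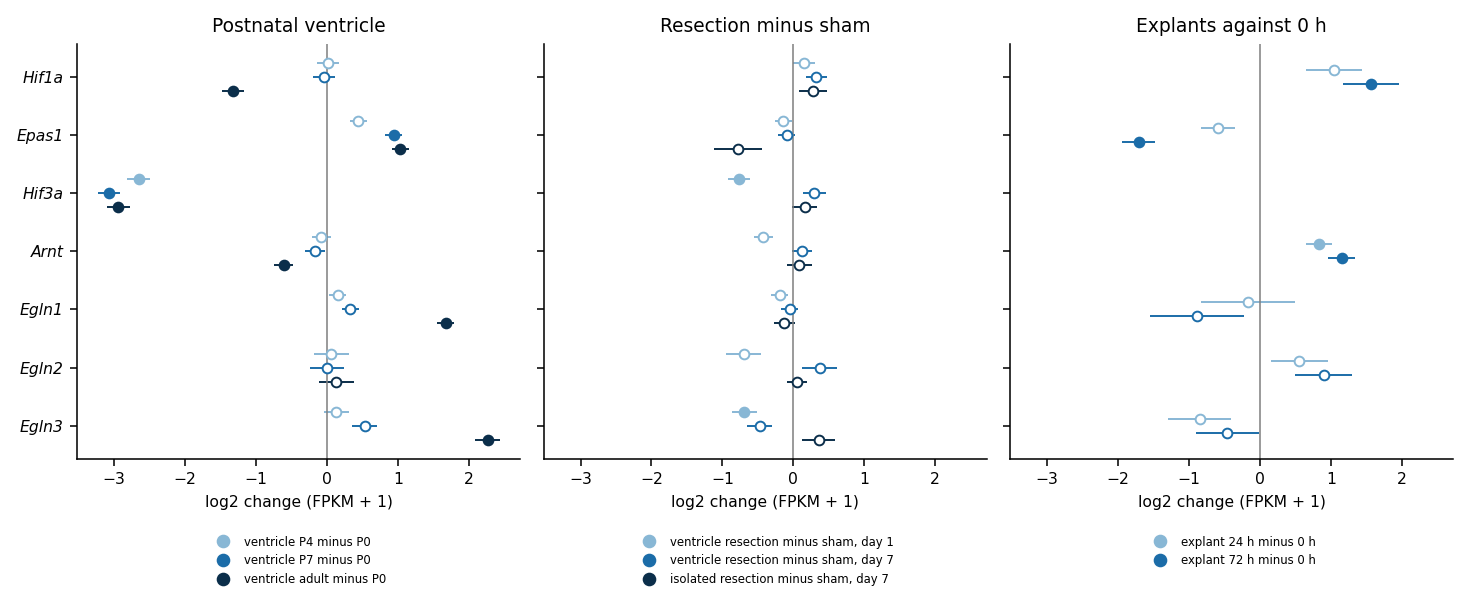
Change on the log2(FPKM + 1) scale (horizontal axis, bars ± SE) of each gene (vertical axis) in unoperated ventricle against P0, after resection against sham, and in explants against 0 h; filled points passed at an adjusted p under 0.05 and open points did not, and Hif3a was not tested in explants. In the first panel Egln3 reaches 2.27 and Hif3a -2.94 in the adult, and in the second 2 points are filled, Hif3a and Egln3 at day 1. The explant points are from the fit without the replicate number as a block.

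The other genes of the pathway were read from 4 lists, chosen with earlier results of these data known. Of 14 partners and oxygen-sensing genes, 0 rose and 6 fell from P0 to the adult, with a median change of -0.31 against -0.36 over all genes. Among them Vhl, the ubiquitin ligase component, fell by 0.83 and Siah1a, a ligase that acts on hydroxylases, fell by 0.97. The list's balance moved with the scaling: 5 were higher and 3 lower when libraries were scaled by median of ratios, and 3 higher and 5 lower after quantile normalization. Vhl and Siah1a passed as lower under both.

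Of 28 tested hypoxia-response targets 9 rose and 10 fell in the adult, with a median of -0.15, and 12 rose and 6 fell under either other scaling. Angptl4, a lipoprotein lipase inhibitor, fell by 3.28, from 20 ± 3.46 to 1.16 ± 0.297 FPKM (SD, n = 2). The lactate exporter gene Slc16a3 fell by 2.44 and the lysyl oxidase Loxl2 fell by 1.91. Already at P7 Slc16a3, Angptl4 and the glucose transporter gene Slc2a1 were lower than at P0, by -1.87, -1.81 and -1.15. At that age 1 of 28 targets was higher and 4 were lower, with 12.7% of all genes called. Under either other scaling 3 were higher and 3 lower. Targets moved in both directions over the age at which Hif1a fell and Epas1 rose. Of 13 VEGF family ligands and receptors 4 rose and 3 fell in the adult; the ligand gene Pgf rose by 1.14, the receptor gene Flt1 by 1.09 and Angpt1 by 0.88.

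The resection comparisons ask how the set responds to loss of heart tissue, with sham-operated hearts as control. At day 1, Hif3a and Egln3 were lower after resection than after sham, and at day 7 no member passed. Neither day 1 call held in every setting. Hif3a and Egln3 did not pass with quantile normalization, with the compared groups fitted alone or with the operated ventricle libraries fitted alone.

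At day 1 Hif3a was at 8.12 and 6.13 FPKM after sham and 3.43 and 4.1 after resection. The groups did not overlap, and all 4 values lay between those of unoperated P0 and P4 ventricle. The difference was -0.76 ± 0.16 (limma adjusted p = 0.0131); it did not pass without sham replicate 1 (-0.59, adjusted p = 0.0816) or without resection replicate 1 (-0.66, adjusted p = 0.0866). At day 7 the levels were 0.146 and 0.243 FPKM after sham and 0.348 and 0.598 after resection, a difference of 0.30 ± 0.16 that did not pass (adjusted p = 0.528). The resection effect at day 7 minus that at day 1 was 1.06 ± 0.22 (adjusted p = 0.0195), with a median of 0.27 over all genes. It did not pass with median-of-ratios scaling (0.84, adjusted p = 0.0707) or quantile normalization (0.77, adjusted p = 0.106). Hif3a was the 1 of 7 members called for this difference, with 5.91% of all genes called.

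Egln3 was at 43.8 and 49.6 FPKM after sham and 29.2 and 27.8 after resection at day 1, with no overlap. The difference was -0.69 ± 0.17 (limma adjusted p = 0.0283). It did not pass when any of 3 of these libraries was left out: adjusted p was 0.0599 without sham replicate 1, 0.16 without sham replicate 2 and 0.0862 without resection replicate 1. With median-of-ratios scaling it was -0.48 (adjusted p = 0.0957). At day 7 Egln3 was again lower after resection, at 38.5 and 33.1 against 55.7 and 44.9 FPKM with no overlap, a difference of -0.48 ± 0.17 that did not pass (adjusted p = 0.343).

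The other members differed less or varied more at day 1. Hif1a was at 52.9 and 54.7 FPKM after sham and 60.5 and 59.3 after resection, a difference of 0.15 ± 0.15 (limma adjusted p = 0.557). Epas1 was at 32.2 and 31.9 FPKM after sham and 30.7 and 27.4 after resection, and Egln1 at 49.5 and 49.2 against 46.8 and 39.5. The groups did not overlap for these 3 genes, nor for Arnt and Egln2. How often this held over all genes was not counted, so the separation is not read as a response of the set. Adjusted p was above the threshold, at 0.475 for Epas1 and 0.314 for Egln1. Their differences were -0.14 and -0.19, but 0.07 and 0.01 with median-of-ratios scaling. Under that scaling Hif1a, Arnt and Egln2 kept their direction, at 0.36, -0.22 and -0.54. Arnt, at 26.4 and 24.7 after sham and 16.1 and 21.8 FPKM after resection, missed the threshold (adjusted p = 0.0634). Egln2 was at 5.86 and 5.08 FPKM after sham and 1.82 and 4.59 after resection, and missed it too (adjusted p = 0.0848). Without resection replicate 2 the changes were -0.63 for Arnt and -1.20 for Egln2. Those values rest on 1 resection library, the lower of the pair for both genes.

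At day 1, 2 of 7 members were called, against 10.3% of all genes. The median of all genes was shifted by -0.16, and 198 genes were higher and 1265 lower after resection, a balance of 461 to 549 with median-of-ratios scaling. At day 7, 0 of 7 were called by limma, 1 of them had an unadjusted p under 0.05, and 0.162% of all genes were called. Of 8 tested lung markers 4 were higher after resection at day 7. In the resection effect at day 7 minus that at day 1, 6 of 8 were higher. Macrophage markers moved with the day 1 groups: 4 of 9 were lower after resection, and their sums were 88 and 124 FPKM after sham and 40.8 and 45.0 after resection. The part of lung or macrophage cells in the member differences was not tested.

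Among hypoxia-response targets, 7 of 28 were lower and 0 higher after resection at day 1, with a median of -0.28 against -0.16 over all genes; with median-of-ratios scaling 5 were lower and 2 higher. Hmox1, the heme oxygenase that is also induced by heme and oxidants, was at 22.5 ± 9.55 FPKM after sham and 4.52 ± 1.82 after resection (SD, n = 2), a change of -2.07 ± 0.27 (limma adjusted p = 0.00157). Ddit4, a stress-induced inhibitor of mTOR, fell by 1.68, Slc2a1 by 1.01 and the secreted glycoprotein gene Stc2 by 1.01. Of VEGF family genes 3 of 13 were lower, Figf by -0.86, Flt1 by -0.80 and Tie1 by -0.73, the last of which did not pass under the other scalings. Endothelial marker sums were 253 and 262 FPKM after sham and 163 and 229 after resection, and 2 of 9 markers were lower. At day 7, 0 of 69 genes of the 4 lists were called and 3 had an unadjusted p under 0.05.

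Egln2 showed the widest gap between the library sets. In the 8 operated ventricle libraries it ranged from 1.82 to 5.96 FPKM with a median of 4.87, and in the 6 unoperated neonatal libraries from 18.5 to 23.3 with a median of 21.8. Sham and resected hearts were alike low, and every operated library lay below every unoperated neonatal one. The same held for 20.0% of 14019 genes. The difference of means was -2.03 on the log2 scale, and 3.14% of 14019 genes had one as low or lower. Isolated cells showed a smaller gap, 8.99 to 10.4 FPKM in 6 operated and 10.1 to 13.5 in 6 unoperated libraries, with overlap. Unoperated ventricle held 18.5 to 23.7 FPKM at every age from P0 to the adult, and the operated libraries were low at both day 1 and day 7. Operation and library set cannot be told apart for this gap.

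Egln3 ran opposite to Egln2 between those sets, at 27.8 to 55.7 FPKM in operated and 15.2 to 29.6 in unoperated neonatal ventricle, with overlap. In consequence the makeup of the hydroxylase RNA differed: Egln2 made up 2.33% to 6.38% and Egln3 32.7% to 47.7% of the sum in the 8 operated libraries. In the 6 unoperated neonatal libraries the ranges were 18.4% to 23.8% and 18.0% to 24.3%.

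**Figure D3:**
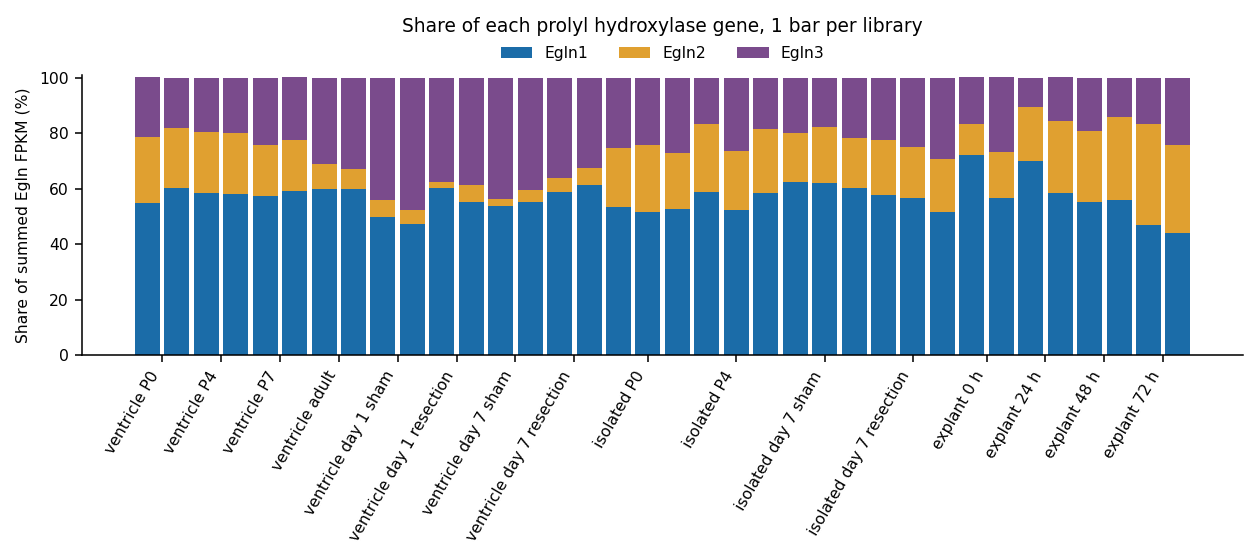
Share of Egln1, Egln2 and Egln3 in their summed FPKM (vertical axis, %), with 1 stacked bar per library in the order of the 16 groups (horizontal axis). The orange Egln2 segment is 2.33% to 6.38% in the 8 operated ventricle bars and reaches 36.4% in a 72 h explant.

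Cells isolated on columns were compared to ask what changes within cardiomyocytes. Their markers went against that name in part: at day 7 after sham, endothelial sums were 517 to 588 FPKM in isolated cells and 294 and 355 in whole ventricle, and cardiomyocyte sums were 9562 to 13053 and 32672 and 35849 FPKM. Between P0 and P4, and between resection and sham at day 7, 0 of 7 members were called by limma in either case. In each comparison 1 member had an unadjusted p under 0.05. Of all genes, 0.00765% were called at P4 and 1.09% at day 7.

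Hif3a fell in level from P0 to P4 here too, without passing the test. It was at 3.05, 3.19 and 2.72 FPKM at P0 and 1.22, 0.843 and 0.539 at P4. All P4 libraries lay below all P0 libraries. The difference was -1.11 ± 0.17 (limma unadjusted p = 2.6e-05, adjusted p = 0.0725); in a single fit over all 36 libraries it passed (adjusted p = 3.1e-04). By day 7 the values were 0.0982, 0.125 and 0.419 FPKM after sham and 0.301, 0.331 and 0.406 after resection.

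Epas1 had the widest standard error of the 7 members in isolated cells. It was at 12.8, 12.6 and 19.3 FPKM at P0 and 22.9, 12.9 and 27.5 at P4. At day 7 it was at 54.2, 52.7 and 51.2 FPKM after sham and 27.8, 52.8 and 18.5 after resection. The sham libraries lay close together and the resection libraries spread widely, with replicate 2 inside the sham range. The day 7 difference was -0.79 ± 0.34 and did not pass (limma adjusted p = 0.352).

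Endothelial markers also differed between these libraries. Their sum over 9 genes was 25.4, 18.6 and 119 FPKM at P0, 150, 27.5 and 308 at P4, 544, 588 and 517 at day 7 after sham and 190, 500 and 23.8 after resection, in replicate order. Within P0, P4 and the resection group, the library with the highest endothelial sum had the highest Epas1. In the sham group the highest sum was in replicate 2 and the highest Epas1, 54.2 FPKM, in replicate 1. Lung marker sums were 862, 345 and 1525 FPKM in the resection libraries against 260, 202 and 254 after sham. Of 9 lung markers, 8 had at least 1 FPKM in every resection library and 1 in every sham library. Sums like those after sham also arose without most lung markers: 0 h explants had 249 and 267 FPKM with 7 of 9 at 0. The part of endothelial and lung cells in the Epas1 levels was not tested.

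**Figure D4:**
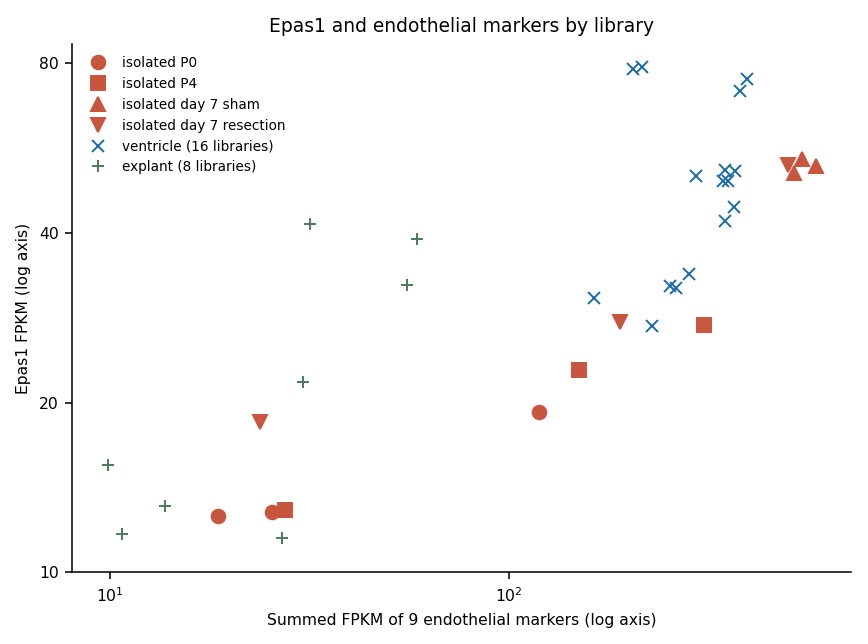
Epas1 level (vertical axis, FPKM, log axis) against the summed level of 9 endothelial markers (horizontal axis, FPKM, log axis), 1 point per library; red symbols are the isolated cell groups, blue crosses ventricle and green plus signs explants. The isolated day 7 resection libraries run from 23.8 to 500 FPKM in endothelial sum and from 18.5 to 52.8 FPKM in Epas1, while adult ventricle reaches 78.7 FPKM of Epas1 at 216 FPKM of endothelial markers.

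The remaining members had narrower ranges in isolated cells. Hif1a ranged from 23.9 to 42.2 FPKM over the 12 libraries, Arnt from 9.26 to 14.4, Egln1 from 24.7 to 34.3, Egln2 from 8.99 to 13.5 and Egln3 from 8.10 to 16.2. The day 7 differences were 0.27 ± 0.20 for Hif1a, 0.16 ± 0.17 for Hif3a and 0.36 ± 0.23 for Egln3, with limma adjusted p of 0.608, 0.735 and 0.558. The resection effect in isolated cells minus that in ventricle at day 7 was called for 0 of 7 members by limma, also at an unadjusted p under 0.05, and for 0.0809% of all genes. Its widest values were 0.83 ± 0.40 for Egln3 (95% confidence interval -0.0011 to 1.66) and -0.69 ± 0.40 for Epas1 (-1.52 to 0.13). In the VEGF list, Figf was higher after resection in isolated cells, at 4.84 ± 0.282 against 0.622 ± 0.328 FPKM (SD, n = 3, limma adjusted p = 0.00329), as was Angpt1, which did not pass under the other scalings. In the same comparison 8 of 9 lung and 5 of 7 atrial markers were higher; atrial sums were 751 to 1342 FPKM after resection and 51.5 to 103 after sham. Their part was not tested.

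Isolated P0 cells were set beside P0 ventricle in a single fit over all libraries. Epas1, Hif3a, Arnt, Egln1 and Egln2 were lower in isolated cells, 5 of 7 members, where 54.7% of all genes were called and their median was -0.57. With median-of-ratios scaling or quantile normalization Hif3a alone of the 7 passed, by -0.94 and -0.99. Its levels were 2.72 to 3.19 FPKM in isolated cells and 11.0 and 11.3 in ventricle. Of the other cell markers, 9 of 9 endothelial, 8 of 9 macrophage and 7 of 8 fibroblast genes were lower and 4 of 7 erythroid genes higher in isolated cells, and their part was not tested. The preparation and any difference in library method cannot be told apart.

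The explants ask how adult cardiomyocytes change in culture. Over 72 h Epas1 fell and Hif1a and Arnt rose, while Hif3a stayed under 0.2 FPKM and was not tested. With the replicate number as a block, Egln1 also passed as lower and Egln2 as higher at 72 h. Egln3 passed as lower at 72 h with median-of-ratios scaling, and not with quantile normalization. The levels of Hif1a and Arnt moved with a shift of all genes, and their calls at 72 h were lost under median-of-ratios scaling and quantile normalization. Cardiomyocyte markers fell over the same time, from sums of 31802 and 29437 FPKM at 0 h to 4152 and 3987 at 72 h. Macrophage markers went from 2.58 and 2.3 FPKM to 137 and 83.9. Their part in the member changes was not tested.

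Epas1 went from 41.5 and 39.1 FPKM at 0 h to 32.3 and 21.8 at 24 h, 15.5 and 13.1 at 48 h and 11.5 and 11.7 at 72 h. Each time lay below the one before with no overlap. The fall at 72 h was -1.71 ± 0.24 (limma adjusted p = 0.00143) and was -2.58 with median-of-ratios scaling (adjusted p = 2.5e-04). At 24 h the change of -0.58 ± 0.24 did not pass (adjusted p = 0.126), and passed with the replicate number as a block (adjusted p = 0.0324). With median-of-ratios scaling the 24 h change was -1.10 and passed (adjusted p = 0.0213), and with quantile normalization it did not pass. Endothelial marker sums were 31.7 and 58.9 FPKM at 0 h and 27.0 and 10.7 at 72 h.

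Hif1a rose from 17.6 and 18.8 FPKM at 0 h to 43.1 and 34.7 at 24 h, 29.6 and 36 at 48 h and 35.3 and 88.9 at 72 h. All cultured libraries exceeded both 0 h libraries, and the 72 h libraries differed between themselves more than 0 h from 24 h. The change at 72 h was 1.57 ± 0.40 (limma adjusted p = 0.013). The median of all genes shifted by 0.76 in this comparison, and with median-of-ratios scaling the change was 0.68 and did not pass (adjusted p = 0.246). At 24 h it was 1.05 ± 0.40, which passed only with the block among these 2 fits (adjusted p = 0.108 without and 0.0411 with it).

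Arnt was at 8.74 and 9.77 FPKM at 0 h, 17.4 and 17.2 at 24 h, 18.3 and 17.8 at 48 h and 22.7 and 20.9 at 72 h, and no 2 times overlapped. The rise was 0.84 ± 0.19 at 24 h (limma adjusted p = 0.0267) and 1.16 ± 0.19 at 72 h (adjusted p = 0.00244). The 24 h call was lost when any of the 4 libraries was left out, with adjusted p of 0.0805 to 0.142. With median-of-ratios scaling the changes were 0.36 and 0.30 and neither passed (adjusted p = 0.239 and 0.253). Epas1 to Hif1a, a ratio that a scaling factor per library does not touch, went from 2.35 and 2.08 at 0 h to 0.749 and 0.626 at 24 h and 0.326 and 0.132 at 72 h.

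Among the hydroxylases the explant replicates differed in level. Egln1 was at 146, 106, 69.2 and 51.1 FPKM over 0, 24, 48 and 72 h in replicate 1 and at 40, 44.0, 37.6 and 33.3 in replicate 2. It was higher in replicate 1 at every time, and 72 h lay below 0 h in both. The change at 72 h was -0.88 ± 0.66 (limma adjusted p = 0.285), and with the block -0.88 ± 0.27, which passed (adjusted p = 0.0208). Egln2 was at 22.3, 29.6, 31.9 and 39.7 FPKM in replicate 1 and 11.6, 19.8, 20.2 and 24.1 in replicate 2, above the time before at each step in both. With the block its changes of 0.56 at 24 h and 0.90 at 72 h passed (adjusted p = 0.0203 and 0.00112), and without it they did not (adjusted p = 0.366 and 0.0937).

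Egln3 was at 34.2, 15.8, 24.2 and 18.2 FPKM in replicate 1 and 18.9, 11.8, 9.49 and 18.3 in replicate 2. Its change was -0.85 ± 0.44 at 24 h (limma adjusted p = 0.213, or 0.0454 with the block) and -0.46 ± 0.44 at 72 h (adjusted p = 0.4). The median of all genes shifted by 0.76 at 72 h. With median-of-ratios scaling the 72 h change of Egln3 was -1.34 and passed as lower (adjusted p = 0.0333). It did not pass with quantile normalization. The share of Egln2 in the summed hydroxylase FPKM went from 11.0% and 16.5% at 0 h to 36.4% and 31.8% at 72 h, and that of Egln1 from 72.2% and 56.8% to 46.9% and 44.0%.

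In counts, 1 of 6 tested members was called at 24 h, where 18.1% of all genes were called, and 3 of 6 at 72 h, where 56.0% were. With the replicate number as a block 5 of 6 were called at each time, against 40.4% and 71.2% of all genes. Hif3a was listed at 0 in 1 of the 48 h libraries and reached 0.169 FPKM in the other.

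Of 14 partners and oxygen-sensing genes 7 rose and 0 fell at 72 h, or 10 and 0 with the block and 4 and 0 with median-of-ratios scaling. Of all genes 56.0%, 71.2% and 34.4% were called in these fits. The median change of the list was 0.86 against 0.76 over all genes, so its rise was near the shift of all genes. Vhl rose by 1.79 and the coactivator Ep300 by 1.78, and both also passed under the other scalings. Of 27 tested hypoxia-response targets 8 rose and 4 fell, or 9 and 6 with the block. The balance was 3 to 11 when scaled by median of ratios and 3 to 10 after quantile normalization. Hmox1 went from 14.1 ± 5.21 to 580 ± 340 FPKM (SD, n = 2), a change of 5.18 ± 0.51 (limma adjusted p = 0.00056). Slc2a1 went from 7.67 ± 0.114 to 106 ± 17.8 FPKM, a change of 3.61 ± 0.23 (adjusted p = 0.00017), and both had intermediate levels at 48 h, 302 FPKM for Hmox1 and 54.3 for Slc2a1. Of 9 tested VEGF family genes 5 fell and 0 rose, or 6 and 1 with the block, with a median of -1.29 against 0.76 over all genes. Angpt1 changed by -2.76, Flt1 by -1.96 and Tie1 by -1.72.

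Dissociated adult cells at 0 h were lower than adult ventricle in 5 of 7 members, with 33.8% of all genes called and a median shift of -0.38. Markers of other cells were also lower: 8 of 8 for fibroblasts, 9 of 9 for macrophages, 5 of 9 for endothelium, 6 of 9 for smooth muscle and pericytes and 5 of 7 for erythroid cells. Their part was not tested. Egln3 had the widest gap, 34.2 and 18.9 against 83.1 and 97.8 FPKM, a difference of -1.79 ± 0.31 (limma adjusted p = 1.6e-04) that also passed under both other scalings (-1.21 and -1.53). Epas1, Arnt and Egln1 did not pass with median-of-ratios scaling. Hif3a was under 1 FPKM on both sides, at 0.0314 and 0.0901 against 0.508 and 0.660, and did not pass with quantile normalization (adjusted p = 0.156). The Egln1 difference of -1.13 was -0.21 without 0 h replicate 2 (adjusted p = 0.73). Hif1a overlapped, at 17.6 and 18.8 against 18.9 and 17.0 FPKM, with a 95% confidence interval of -0.54 to 0.58 for the difference of 0.02.

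Patterns over the 16 group means were compared as a description, with no test; the groups share libraries of 3 preparations, and 6898 other genes with a mean of at least 5 FPKM were searched (6899 for Hif3a). Hif1a was most like Whsc1, Stam2 and Snx6 (Pearson r of 0.95, 0.94 and 0.93), and Epas1 most like Mcf2l, Etl4 and Slc9a3r2 (0.94, 0.92 and 0.92). Hif3a was most like Phactr2, Hey2 and Lta4h (0.88, 0.88 and 0.87). Arnt was nearest to Acbd3, Stt3b and Sec23ip (0.98, 0.97 and 0.97), and Egln1 to Slc35e1, Pptc7 and Mavs (0.96, 0.96 and 0.93). Egln2 had Map2k2 and Wdr18 (0.99 and 0.98), and Egln3 had Klf9, St3gal5 and Pigyl (0.94, 0.90 and 0.89). Within the set the closest pairs were Hif1a with Arnt (0.78) and Egln1 with Egln3 (0.77), while Hif1a and Epas1 had -0.19.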

How the data were processed

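RNA sequencing values of 36 libraries were taken from the table of FPKM deposited by the authors, with 1 column per library; all columns were used. The submitters' processing notes name build mm9 and, among tools, TopHat 1.3.2, Bowtie 0.12.7, Cuffdiff and Cufflinks 1.2.1; the annotation is not given in the sources used here. The member genes, the lists and the rule for naming genes were chosen with earlier results of these data known.

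Values were taken as log2(FPKM + 1), keeping 1 row per symbol, the one with the highest mean. Group means were fitted with limma 3.58.1 (variance trend) under R 4.3.3 within each preparation (16 ventricle, 12 isolated and 8 explant libraries), or over all 36 libraries for comparisons across preparations, on genes with at least 1 FPKM in at least 2 libraries of the fit. These were 14201 genes in ventricle, 13080 in isolated cells, 12181 in explants and 14834 over all libraries. All 7 members passed this filter in ventricle and isolated cells, and 6 in explants. Tests were two-sided, adjusted by Benjamini-Hochberg over all genes tested and called under 0.05; the script was tested on simulated data. Depth is unknown, so no counting interval is given.

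Named genes were the members, at most 3 called genes of each list per comparison with the largest change, and the 3 genes most like each member, of which 1 is not reported here. Whether equal replicate numbers pair libraries was judged from correlated deviations around group means: same-numbered explants correlated for all 6 pairs of groups (r of 0.38 to 0.62; with 2 libraries a group, both numbers give the same r), so the explants are treated as paired and their blocked values stand beside the results. Other settings tried were quantile normalization, median-of-ratios scaling, the block, all genes without the filter, a pseudocount of 0.1, only the compared groups, no variance trend, one fit over all libraries, each library left out and, for the order of group levels only, summed rows per symbol; fits on operated or unoperated ventricle libraries alone were chosen after the data were seen. Promoters came from a RefSeq table of build GRCm38.p6. Figures were drawn with Matplotlib 3.10.9, NumPy 2.4.6 and pandas 2.3.3 under Python 3.11.15.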

Additional observations from a re-analysis of the deposited data

Results flagged for a closer look

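Hif3a stood out because its resection effect in ventricle differed between the times after operation: it was -0.76 at day 1 and 0.30 at day 7, and the difference between them was 1.06 on the log2(FPKM + 1) scale (limma interaction, adjusted p = 0.0195). At day 1 both resection libraries were below both sham libraries, and at day 7 both were above, at levels under 1 FPKM. The difference did not pass with median-of-ratios scaling (0.84, adjusted p = 0.0707) or with quantile normalization (0.77, adjusted p = 0.106). With the operated ventricle libraries fitted alone, which are the compared groups, it was 1.06 and did not pass (adjusted p = 0.127). It did not pass either without day 1 sham replicate 1 (0.88, adjusted p = 0.0534), day 1 resection replicate 1 (0.96, adjusted p = 0.0596) or day 7 sham replicate 1 (1.00, adjusted p = 0.0672).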

How the results depend on the processing

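Over 1280 alternative values of single members, 1175 kept their side of the threshold, 76 lost a call, 29 gained one and 0 of the called ones changed sign; 50 values that were uncalled both ways changed sign and were not counted. Counts of called members moved as follows. With quantile normalization they were 2 at P4, 4 at P7, 0 for resection at day 1, 0 for the difference of day 7 and day 1, 0 and 1 in explants at 24 and 72 h, 2 for explants at 0 h against adult ventricle and 1 for isolated against ventricle P0. With median-of-ratios scaling they were 4 at P7, 1 at day 1, 0 for the difference of days, 2 for 0 h explants and 1 for isolated P0. A pseudocount of 0.1 gave 1 at day 1; no filter gave 1 at day 1 and 3 for 0 h explants. The compared groups alone gave 0 at day 1, 0 for the difference of days, 0 at 24 h and 2 for 0 h explants, and the operated ventricle libraries alone gave 0 at day 1. For the difference of days both settings are the same fit. One fit over all libraries gave 1 at P7, 1 at day 1, 1 for isolated P4 and 3 and 5 for explants at 24 and 72 h. Leaving out 1 library gave 0 to 4 at day 1, 0 to 3 for the difference of days, 0 for explants at 24 h, 2 to 3 for 0 h explants and 3 to 5 for isolated P0 against ventricle P0. The cause was not tested. Where a library was left out of a group of 2, the lone sample was assumed to vary like the other groups.

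With the replicate number as a block, 5 members were called in explants at 24 h and 5 at 72 h. In isolated cells (r of -0.58 to 0.43 between same-numbered libraries) and ventricle (-0.13 to 0.18) the samples share only a number, and the block took no call there; Hif1a in isolated P0 against ventricle P0 gained one (adjusted p = 0.0416). The median of all genes moved by more than 0.1 in most comparisons, so a direction near that shift depends on the scaling. Levels at or below 1 FPKM, as in most Hif3a libraries, limit what a fold can show.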

Other observations

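Glycolytic enzymes, many of them known targets of Hif1a, were read from a list of 14 genes. From P0 to the adult ventricle 3 rose and 2 fell, or 7 and 0 when scaled by median of ratios and 2 and 0 after quantile normalization; of all genes 57.2%, 48.6% and 48.5% were called in these fits. Hk2, the hexokinase of striated muscle, rose by 1.66 and Pfkl by 0.80 on the log2 scale, and both passed under either scaling, while Eno1, at -1.06, did not. At P7 Hk2 was already higher, by 0.98, and Hk1 lower, by -0.83. In explants at 72 h 2 rose and 4 fell, or 3 and 5 with the block and 0 and 8 with median-of-ratios scaling. Of all genes 56.0%, 71.2% and 34.4% were called in these fits. The muscle enolase gene Eno3 fell by 4.33 and Tpi1 fell by 1.78.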
